A study of Rattus norvegicus and Mus musculus with 12 samples.

Results

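The genes described here were 10 imprinted genes that act in the control of growth: the non-coding RNAs H19 and Meg3, and the protein-coding genes Dlk1, Peg3, Mest, Plagl1, Grb10, Ndn, Nnat and Zim1. They were taken by name, as the rows of the deposited rat and mouse tables whose gene name was one of the 10. The 10 names were chosen with earlier results of these data known. The mouse table of 28603 genes held all 10, and the rat table of 19687 genes held 8 of the 10. H19 and Meg3 had no row of that name in the rat table and were not analysed here in the rat.

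RNA sequencing had been done on cultured articular chondrocytes of newborn animals, 24 h old, in 12 libraries, to set side by side rat and mouse cell models of osteoarthritis. The RC and RM groups were first-passage chondrocytes of Sprague-Dawley rats, and the MC and MM groups were first-passage chondrocytes of mice that the study names as C57BL/6, with 3 libraries in each group. The control groups RC and MC were left untreated, and the model groups RM and MM were given 20 ng/ml of the inflammatory cytokine IL-1β for 24 h. No transgene or deletion is named for any group, and the model is 1 cytokine acting on cells in a dish. The libraries of a group are independent samples in the words of the study, but the labels do not tie each to its animals or litter. The p-values therefore measure only the spread between these libraries. The strain label of the mouse libraries ran from C57BL/6 to C57BL/9 and differed from library to library within both MC and MM, and the groups were used as their titles give them.

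Imprinted genes are expressed mainly from the copy inherited from 1 parent. The difference between the copies mostly traces to DNA methylation set in the egg or sperm, which is not always on the silent copy. Many of them act on fetal growth: copies expressed from the father often promote growth, and copies expressed from the mother often restrain it, as in the classic pair of the growth factor gene Igf2 and its neighbour H19. Most are abundant in fetal and newborn tissue and fall as an animal matures, and several have been described as a co-regulated network around the zinc finger factor Plagl1. The libraries give the sum of both copies, so which parental copy was expressed cannot be seen here.

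H19 carries a microRNA inside its transcript, and this stretch is shown because it is the best known product of the member that changed most in mouse cells. The precursor hairpin Mir675 lies at chr7:142577064-142577147 on the minus strand of GRCm38, inside an H19 exon. The mature rat sequences, from RefSeq with the GRCr8 assembly, have their seed (bases 2 to 8) in capitals, and the capitals in the mouse hairpin mark the stretches that are identical to the mature rat sequences apart from the use of T for U.
mouse Mir675 hairpin: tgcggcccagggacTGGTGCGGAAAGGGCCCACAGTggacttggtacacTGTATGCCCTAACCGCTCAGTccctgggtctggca
rno-miR-675-5p: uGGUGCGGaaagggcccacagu
rno-miR-675-3p: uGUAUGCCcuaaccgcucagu
The microRNA itself was not measured, since the tables count reads over whole genes.

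Promoters are shown for the 4 members that passed the study's criteria of change in rat cells, because these 4 were all lower in the model and their start regions can be read side by side. Each sequence holds 250 bases before and 50 bases after the start of the gene in the rat, from RefSeq with the GRCr8 assembly. Capitals mark TGCCGC on either strand, the core letters bound by the imprint-protecting zinc finger protein ZFP57, and GGGGCCCC, letters described for the zinc finger protein PLAGL1.
Plagl1 promoter, chr1:9297214-9297513, plus strand: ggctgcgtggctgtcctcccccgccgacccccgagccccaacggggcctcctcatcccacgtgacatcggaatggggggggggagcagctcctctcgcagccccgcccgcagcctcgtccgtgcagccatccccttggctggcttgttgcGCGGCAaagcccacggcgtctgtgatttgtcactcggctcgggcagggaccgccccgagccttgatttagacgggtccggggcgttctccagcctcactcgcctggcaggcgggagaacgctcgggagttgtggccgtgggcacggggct
Peg3 promoter, chr1:76130744-76131043, plus strand: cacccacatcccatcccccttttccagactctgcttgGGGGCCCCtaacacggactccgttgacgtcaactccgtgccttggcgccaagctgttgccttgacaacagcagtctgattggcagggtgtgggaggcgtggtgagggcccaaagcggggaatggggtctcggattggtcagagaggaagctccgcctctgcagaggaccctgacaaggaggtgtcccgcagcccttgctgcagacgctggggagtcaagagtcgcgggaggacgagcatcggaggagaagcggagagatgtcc
Zim1 promoter, chr1:76164958-76165257, plus strand: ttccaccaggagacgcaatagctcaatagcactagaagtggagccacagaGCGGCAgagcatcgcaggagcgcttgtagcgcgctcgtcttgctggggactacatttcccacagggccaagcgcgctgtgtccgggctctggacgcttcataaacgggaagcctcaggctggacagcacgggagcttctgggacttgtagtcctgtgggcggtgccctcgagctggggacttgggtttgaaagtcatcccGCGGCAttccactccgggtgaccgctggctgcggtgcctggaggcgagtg
Dlk1 promoter, chr6:134192347-134192646, plus strand: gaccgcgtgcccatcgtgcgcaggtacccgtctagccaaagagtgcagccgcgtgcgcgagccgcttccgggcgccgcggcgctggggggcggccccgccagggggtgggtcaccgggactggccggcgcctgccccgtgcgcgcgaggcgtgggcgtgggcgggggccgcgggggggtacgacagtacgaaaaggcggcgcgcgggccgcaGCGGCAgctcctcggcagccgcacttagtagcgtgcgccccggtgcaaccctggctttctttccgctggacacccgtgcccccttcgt
The 4 windows were rich in G and C, at 70.7% for Plagl1, 62.3% for Peg3, 62.0% for Zim1 and 76.0% for Dlk1, against a median of 51.7% over 33469 rat promoters. Their ratio of observed to expected CpG pairs was 0.775, 0.555, 0.737 and 1.04 in the same order, against a median of 0.392. TGCCGC was present in 5 of the 8 member promoters in the table (Plagl1, Zim1, Dlk1, Meg3 and Grb10) and in 11.7% of all promoters. GGGGCCCC was present in 1 of the 8, that of Peg3, and in 0.858% of all promoters. The consensus of NF-kB, a main factor downstream of the IL-1 receptor, was present in 0 of the 8 and in 7.51% of all promoters. The shares over all promoters were not matched to the members for G and C content, and TGCCGC itself holds a CpG pair. These matches describe letters in a window of 300 bases and were not tested as binding sites.

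The libraries held between 16841580 and 25903459 counted reads each. In untreated cells the 8 members of the rat table took up 0.393% ± 0.0341 (SD, n = 3) of the counted reads, and in RM they took up 0.200% ± 0.0187 (SD, n = 3). The 10 members of the mouse table took up 0.696% ± 0.00722 (SD, n = 3) in MC and 0.121% ± 0.000895 (SD, n = 3) in MM, and no MM library came near an MC library. Values of single libraries below are FPKM, fragments per kilobase of transcript scaled to the size of the library, as the authors deposited them and in the order of libraries 1, 2 and 3. Fold changes are model minus control on the log2 scale, fitted by edgeR to the counts after TMM scaling, with the standard error (SE) of the fit and a p-value adjusted over all genes tested. In the mouse the TMM factors separated the groups (1.099 to 1.104 in MC and 0.905 to 0.911 in MM), so fitted changes lie higher than the FPKM ratios do, with smaller falls and larger rises: scaling by library size alone moved the median change of all mouse genes from -0.02 to -0.30.

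In mouse cells 9 of the 10 members were lower in MM than in MC at an adjusted p under 0.05, and 1, Nnat, was higher; of all 14774 mouse genes tested, 37.7% were called lower and 37.4% higher. Under scaling by library size alone, all 10 kept their direction and call, while the shares over all genes became 54.7% lower and 25% higher. In rat cells 6 of the 8 members were lower in RM than in RC, and Ndn and Nnat did not pass the test; of all 13303 rat genes tested, 16.8% were called lower. The median change of the members was -1.44 in the mouse and -0.86 in the rat, beside -0.02 and 0.01 over all genes tested. The study's criteria, with its fold change limit read here as one on the log2 scale, ask for a change of 0.85 or more, a p below 0.05 before adjustment and some library at 1 FPKM or above. By these, 7 mouse members fell (H19, Mest, Zim1, Peg3, Meg3, Plagl1 and Dlk1), with 13% of all genes past the same criteria downward. The same criteria took 4 rat members (Zim1, Peg3, Plagl1 and Dlk1), with 3.9% of all rat genes past them downward. All 3 model libraries lay below all 3 control libraries for 9 of 10 mouse members and 6 of 8 rat members, and the same was true of 54.9% of all mouse genes and 22.3% of all rat genes.

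**Figure D1:**
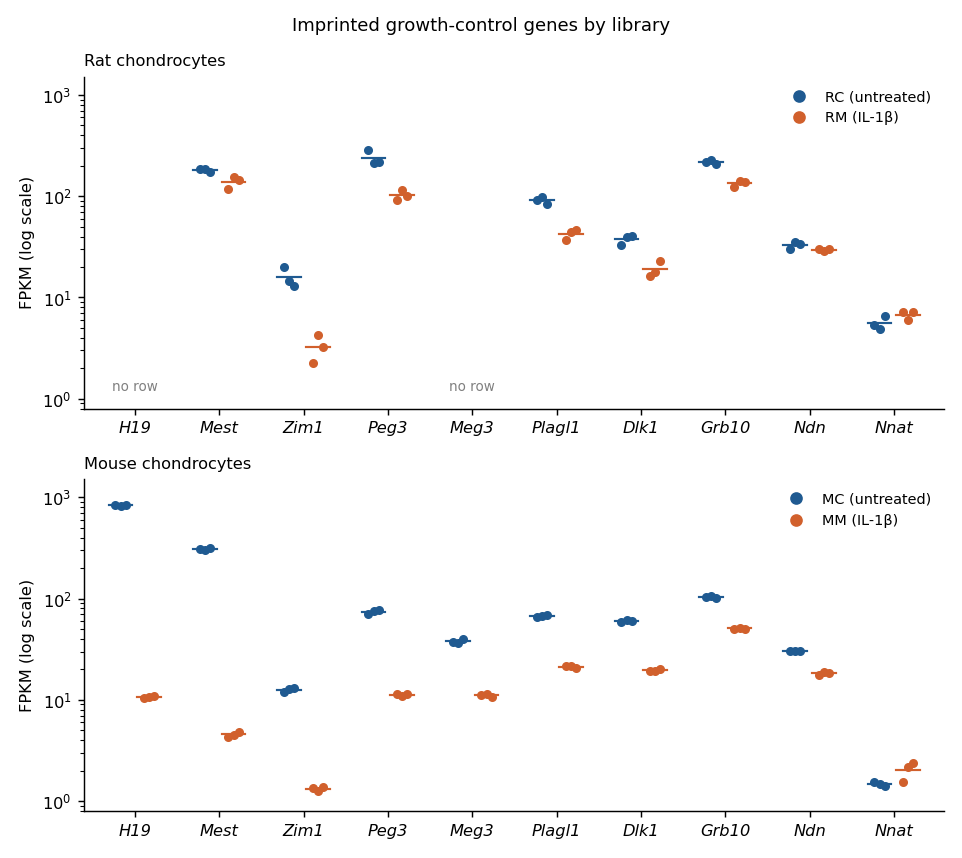
FPKM of each member in each library, on a log axis, for rat cells (upper panel) and mouse cells (lower panel); points are libraries and bars are group means. In the mouse the model libraries lie below the control libraries for 9 of 10 genes, while in the rat Ndn and Nnat overlap between the groups.

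H19 is a maternally expressed long non-coding RNA that restrains growth and shares its enhancers with Igf2. The mouse gene is annotated at chr7:142575529-142578143, minus strand, on GRCm38, and 9.15% of its exon bases are shared with other small annotated genes, Mir675 among them. It read 845, 819 and 834 FPKM in MC, the highest level of any member and a percentile of 99.9 among genes with a count. In MM it read 10.5, 10.7 and 11.0 FPKM, so that the lowest control library lay far above the highest model library. The fitted change was -6.00 (SE 0.036, adjusted p = 5.48e-78), or 63.9-fold lower.

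Meg3 is a maternally expressed long non-coding RNA known as a growth suppressor, and lies beside Dlk1 at chr12:109541001-109571726, plus strand. It read 37.4, 36.5 and 39.5 FPKM in MC and 11.2, 11.5 and 10.6 FPKM in MM, without overlap. Its change was -1.49 (SE 0.032, adjusted p = 4.37e-47). The NEBNext Ultra kit used does not mark the strand, so reads of the antisense gene Gm26906, which overlaps Meg3 exons, cannot be told apart from its own.

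Dlk1 encodes a paternally expressed membrane protein with EGF repeats that is related to Notch ligands and holds back the maturation of fat and cartilage precursors. Mouse libraries read 58.4, 61.7 and 59.8 FPKM in MC against 19.3, 19.3 and 20.0 FPKM in MM. Rat libraries read 32.8, 39.7 and 40.1 FPKM in RC against 16.4, 17.8 and 22.8 FPKM in RM. The groups did not overlap in either species, and Dlk1 fell by 1.34 (SE 0.034, adjusted p = 8.29e-43) in the mouse and by 1.00 (SE 0.13, adjusted p = 0.000181) in the rat on the log2 scale. The rat value is -0.995 before rounding, which is past the limit of 0.85 but just short of one of 1. A limit of 1 leaves 3 rat members past the criteria.

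Nnat encodes neuronatin, a small paternally expressed membrane protein of the endoplasmic reticulum, and was the member at the lowest level in RC and MC. Mouse libraries read 1.53, 1.46 and 1.40 FPKM in MC and 1.53, 2.18 and 2.38 FPKM in MM. Model library 1 fell inside the range of the control libraries, and the other two lay above it. The fitted change was 0.74 (SE 0.20, adjusted p = 0.000882) and rested on 45 to 78 reads per library. It was smaller with library size alone, at 0.46 (adjusted p = 0.0336), and by limma on log2(FPKM + 1), at 0.29 (adjusted p = 0.031). The rat libraries read 5.36, 4.92 and 6.50 FPKM in RC and 7.16, 5.94 and 7.26 FPKM in RM, overlapping, with a change of 0.26 (SE 0.15, adjusted p = 0.204).

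Peg3 encodes a large paternally expressed zinc finger protein with roles in cell death signalling and in maternal and fetal growth. It was the most abundant member by mean in RC, at 283, 214 and 217 FPKM, and read 92.3, 116 and 101 FPKM in RM. In the mouse it read 70.8, 75.4 and 76.8 FPKM in MC and 11.4, 10.8 and 11.3 FPKM in MM. The groups were apart in both species, with a change of -1.22 (SE 0.12, adjusted p = 2.69e-05) in the rat and -2.45 (SE 0.032, adjusted p = 1.94e-59) in the mouse.

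Zim1, a maternally expressed zinc finger gene, lies beside Peg3 in both species, at chr7:6671269-6696450 in the mouse with Peg3 at chr7:6703892-6730431. It had the largest fall of the rat members: 19.9, 14.7 and 13.1 FPKM in RC against 2.25, 4.22 and 3.23 FPKM in RM, a change of -2.30 (SE 0.21, adjusted p = 1.90e-05), or 4.93-fold lower. In the mouse it went from 12.01, 12.7 and 13.1 FPKM to 1.33, 1.26 and 1.38 FPKM, a change of -2.98 (SE 0.063, adjusted p = 1.28e-47). The maternally expressed Zim1 and its paternally expressed neighbour Peg3 were both lower in the model in each species.

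Plagl1 encodes the paternally expressed zinc finger factor that promotes cell cycle arrest and activates other imprinted genes. It read 92.2, 98.4 and 83.9 FPKM in RC and 36.9, 44.1 and 46.1 FPKM in RM. The mouse libraries read 65.1, 67.4 and 68.5 FPKM in MC and 21.7, 21.4 and 20.5 FPKM in MM. No model library reached a control library, and the changes were close in size, at -1.13 (SE 0.094, adjusted p = 9.99e-06) in the rat and -1.38 (SE 0.032, adjusted p = 2.34e-45) in the mouse.

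Grb10 encodes an adaptor protein that binds the insulin and IGF1 receptors and restrains growth, and is expressed from the maternal copy outside the brain. It read 218, 228 and 210 FPKM in RC and 124, 142 and 137 FPKM in RM. The mouse libraries read 103, 106 and 102 FPKM in MC and 50.3, 51.3 and 50.5 FPKM in MM. It was lower in every model library, by -0.72 (SE 0.070, adjusted p = 2.79e-05) in the rat and -0.75 (SE 0.027, adjusted p = 1.42e-34) in the mouse, which is under the size that the study's criteria ask for. In MM it was the member at the highest level.

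Mest encodes a paternally expressed protein of the hydrolase fold that marks mesoderm and promotes fetal growth. In the mouse it read 310, 305 and 312 FPKM in MC and 4.27, 4.54 and 4.84 FPKM in MM, a change of -5.81 (SE 0.040, adjusted p = 8.78e-75), or 56.1-fold lower. The rat libraries read 187, 184 and 175 FPKM in RC and 117, 156 and 143 FPKM in RM, a change of -0.41 (SE 0.10, adjusted p = 0.0102). The rat groups did not overlap, but the step was small beside that in the mouse, and Mest was the member at the highest mean in RM. In the mouse annotation 912 bases of its exons, 23.1%, are shared with Copg2 on the opposite strand, and Copg2 itself changed by -0.74.

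Ndn encodes necdin, a paternally expressed protein of the MAGE family that binds E2F1 and restrains proliferation. In the mouse it read 30.7, 30.3 and 30.1 FPKM in MC and 17.7, 18.6 and 18.6 FPKM in MM, a change of -0.45 (SE 0.042, adjusted p = 4.23e-15). In the rat it read 29.8, 35.0 and 34.0 FPKM in RC and 30.2, 28.6 and 30.3 FPKM in RM. The rat groups overlapped through the first control library, and the change was -0.16 (SE 0.083, adjusted p = 0.148). Without that library it was -0.25 (adjusted p = 0.0107).

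**Figure D2:**
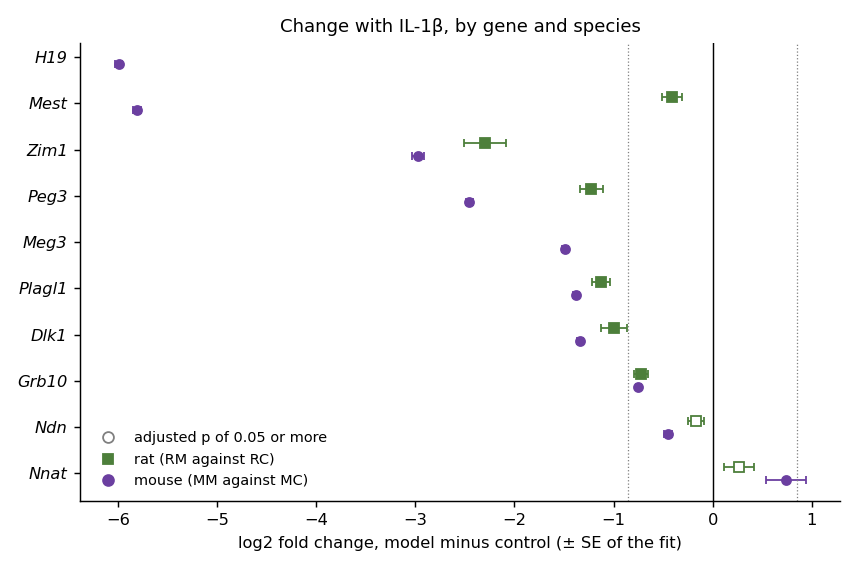
Change of each member from control to model on the log2 scale, with the standard error of the edgeR fit; squares are rat, circles are mouse, open symbols have an adjusted p of 0.05 or more, and dotted lines mark ±0.85. H19 and Mest in the mouse lie near -6, and Nnat alone lies to the right of 0 in both species.

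Set among all genes tested, the members' changes in the rat ranged from -2.30 (Zim1) to 0.26 (Nnat), and those in the mouse from -6.00 (H19) to 0.74 (Nnat). The plot of members among all genes shows the different width of the distributions behind these values. The members spanned percentiles of 54.5 to 98.4 of FPKM in RC and 56.7 to 99.9 in MC, so each was above the median of the genes with a count in untreated cells.

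**Figure D3:**
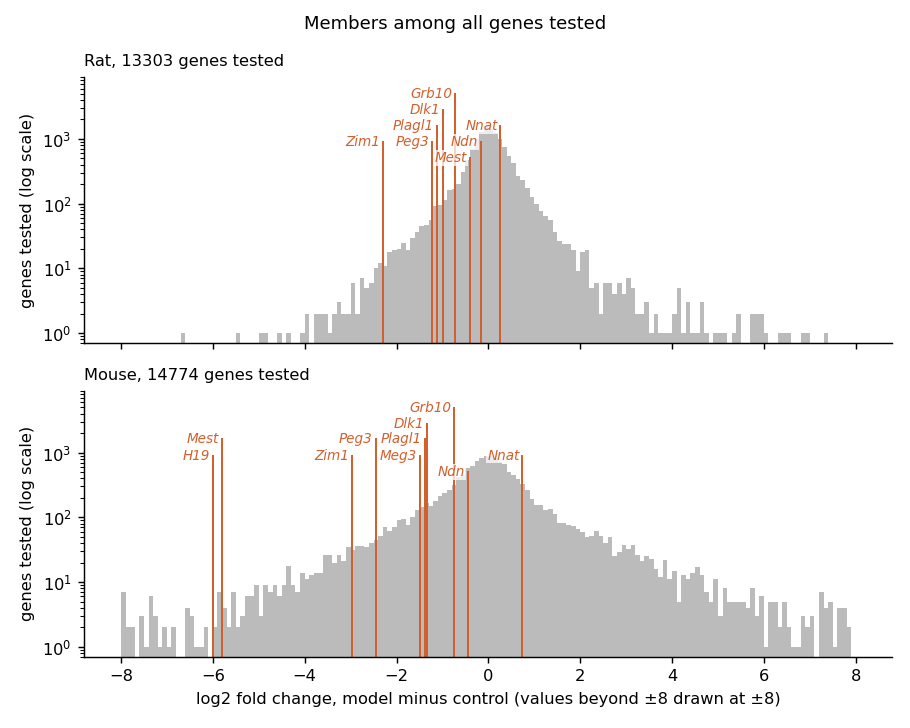
Number of genes (log axis) by log2 change from control to model, for 13303 rat genes and 14774 mouse genes; vertical lines mark the members, and their heights only make room for the names. The mouse distribution is wider, and H19 and Mest stand at -6.00 and -5.81.

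The order of the levels, on the FPKM scale, differed between control and model in both species. In MC the order was H19, Mest, Grb10, Peg3, Plagl1, Dlk1, Meg3, Ndn, Zim1 and Nnat, and no neighbours in it overlapped between libraries. In MM it was Grb10, Plagl1, Dlk1, Ndn, Peg3, Meg3, H19, Mest, Nnat and Zim1, where the ranges of Peg3 and Meg3 and those of Meg3 and H19 overlapped. H19 and Mest went from ranks 1 and 2 to ranks 7 and 8. In RC the order was Peg3, Grb10, Mest, Plagl1, Dlk1, Ndn, Zim1 and Nnat, with overlap between Peg3 and Grb10 and between Dlk1 and Ndn. In RM it was Mest, Grb10, Peg3, Plagl1, Ndn, Dlk1, Nnat and Zim1, with overlap between Mest and Grb10.

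The change in the mouse was set against the change in the rat in 1 edgeR fit over 10912 genes shared by symbol. Of the 8 members present in both species, 6 differed between the species, each with the lower value in the mouse; over all shared genes 63.8% were called, 32.4% with the lower value in the mouse. The difference was -5.40 (SE 0.12, adjusted p = 2.39e-15) for Mest and -1.23 (SE 0.13, adjusted p = 4.68e-07) for Peg3. It was smaller for Zim1, at -0.68 (SE 0.24, adjusted p = 0.0199), and for Ndn, at -0.29 (SE 0.090, adjusted p = 0.00969). For Dlk1 it was -0.35 (SE 0.13, adjusted p = 0.0313) and for Plagl1 -0.25 (SE 0.10, adjusted p = 0.0402), and both lay near the threshold. The call for Dlk1 was lost without RM library 3, where the difference was -0.20 (adjusted p = 0.129), and at differences of -0.35 to -0.33 without MC library 2 or 3 or MM library 1 or 2. The call for Plagl1 was lost, at differences of -0.26 to -0.19, without RC library 3, RM library 2 or 3, MC library 2 or 3, or any 1 of the MM libraries. The call for Zim1 was lost without RM library 2, at -0.43 (adjusted p = 0.105), and without RC library 3, at -0.56 (adjusted p = 0.0506). With 1 library left out, 4 to 6 of the members were called. For Grb10 the difference was -0.03 (SE 0.076, adjusted p = 0.752), and for Nnat it was 0.48 (SE 0.24, adjusted p = 0.0975). With library size alone every difference moved down: Grb10 was called, at -0.32 (adjusted p = 0.00109), Dlk1 was at -0.64, Ndn at -0.58, Plagl1 at -0.55 and Nnat at 0.18. Species, annotation and culture batch cannot be told apart in this comparison.

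**Figure D4:**
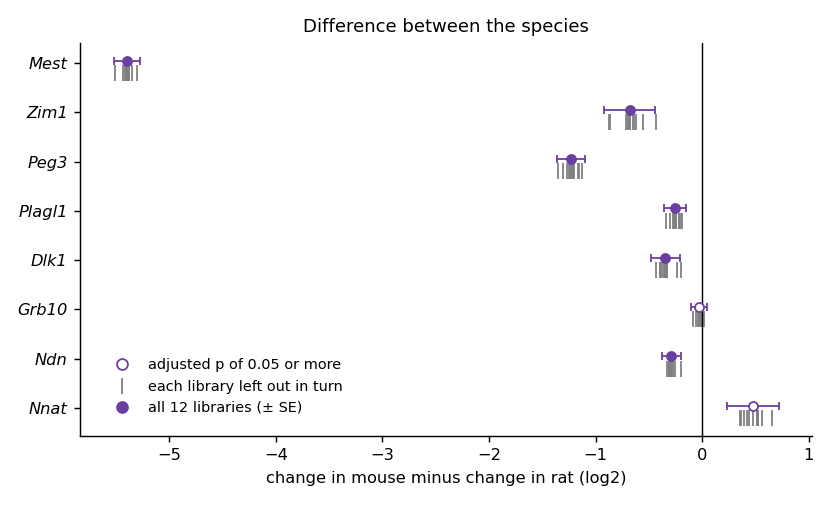
Change in the mouse minus change in the rat, on the log2 scale, for the 8 members in both tables; circles are the fit on all 12 libraries with its standard error, open where the adjusted p is 0.05 or more, and grey ticks are the same value with each library left out in turn. Mest stands at -5.40, Peg3 at -1.23, and the ticks of Grb10 lie on both sides of 0.

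The 10 members lie in 8 imprinted loci, and their neighbours there were read from the same tables; most of these neighbours were named after their values were seen. The counts below stand beside 37.7% of all mouse genes called lower and 37.4% called higher, or 54.7% and 25% with library size alone. In the rat the shares were 16.8% lower and 18.3% higher. Of the Dlk1-Meg3 domain 6 of 6 listed genes were lower in MM: besides Dlk1 and Meg3, the maternally expressed non-coding RNAs Rian (-1.30, 25.8 to 8.66 FPKM) and Mirg (-1.33), and the paternally expressed Rtl1 (-2.86) and Dio3 (-3.44), which encodes the deiodinase that inactivates thyroid hormone. Genes known as paternally expressed and genes known as maternally expressed both fell, and the copy in use here was not seen. Rtl1 was low, at a mean of 0.569 FPKM in MC and 0.0646 FPKM in MM. In the mouse annotation 8.4% of Rtl1 exon bases are shared with other genes, and reads of the 2 strands cannot be told apart. In the rat only Dlk1 and Dio3 of this domain were tested, and Dio3 went the other way, by 3.37 (adjusted p = 0.00076) from a mean of 0.0389 to 0.435 FPKM. Of the Peg3-Zim1 domain 3 of 3 were lower in the mouse, Usp29 being the other one at -2.26, whereas Usp29 in the rat was at 0.13 (adjusted p = 0.563). Of the Mest-Copg2 domain 3 of 3 were lower in the mouse, with Klf14 going from 0.847 to 0.00544 FPKM, and Copg2 in the rat was at 0.0048 (adjusted p = 0.973). The Ndn-Snrpn domain was mixed, with 2 of 5 tested genes lower, 2 higher and 1 not called in the mouse, and 1 of 5 lower and 4 not called in the rat. The Cdkn1c-Kcnq1 domain, near H19, was mixed too, with 2 of 7 lower and 4 higher in the mouse and 3 of 5 lower and 1 higher in the rat. Among the genes called higher in these domains in the mouse, Ube3a had a fitted change of 0.28. Its mean was 2.91 FPKM in MC and 2.90 FPKM in MM. Osbpl5 had a fitted change of 0.20 and went from 23.9 to 22.8 FPKM, so neither was higher on the FPKM scale. Blcap, the host of Nnat, rose with it in the mouse by 1.00 (adjusted p = 9.11e-26), and in the rat was lower by -0.41 (adjusted p = 0.00222).

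The other genes of the imprinted growth network moved in both directions. In the rat 5 of 9 tested rows fell, 1 rose and 3 did not pass, with a median of -0.56, and in the mouse 6 of 9 fell, 2 rose and 1 did not pass, with a median of -1.0. Of all genes tested, 16.8% were called lower in the rat and 37.7% in the mouse, or 54.7% in the mouse with library size alone. Igf2, the paternally expressed fetal growth factor beside H19, read 207 FPKM ± 9.66 (SD, n = 3) in RC and 102 FPKM ± 3.60 (SD, n = 3) in RM, a change of -1.03 (adjusted p = 1.02e-06). In the mouse it changed by -3.67 (adjusted p = 2.03e-43), from 10.5 to 0.684 FPKM, so it fell along with H19. Of its exon bases in the mouse annotation 64.6% are shared with other genes, so its level there is uncertain. Cdkn1c, a maternally expressed inhibitor of cyclin-dependent kinases, changed by -2.13 (adjusted p = 2.80e-08) in the rat and -3.66 (adjusted p = 5.94e-46) in the mouse. In the mouse annotation 30.65% of Cdkn1c exon bases are shared with Gm44732 on the opposite strand.

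Of the other partners, the amino acid transporter gene Slc38a4 changed by -0.84 in the rat and -2.91 in the mouse, and Sgce, a sarcoglycan gene, by -0.33 and -0.75. Peg10, a gene derived from a retrotransposon, was at -1.77 in the mouse and had no row of that name in the rat table. Gatm, which makes the precursor of creatine, fell by 1.66 in the rat and was at 0.06 in the mouse without passing the test. Gnas, which encodes the stimulatory G protein subunit, fell by 1.00 in the mouse, and the 2 rat rows of that name did not pass. In the mouse annotation 21.96% of Gnas exon bases are shared with other genes. Igf2r, the receptor that clears IGF2, rose by 0.97 in the mouse and was at -0.11 in the rat, where it did not pass. Dcn, the small proteoglycan decorin, rose in both, by 2.27 in the rat and by 4.99 in the mouse, from 22.9 to 601 FPKM. Phlda2 was too low to be tested in either species.

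**Figure D5:**
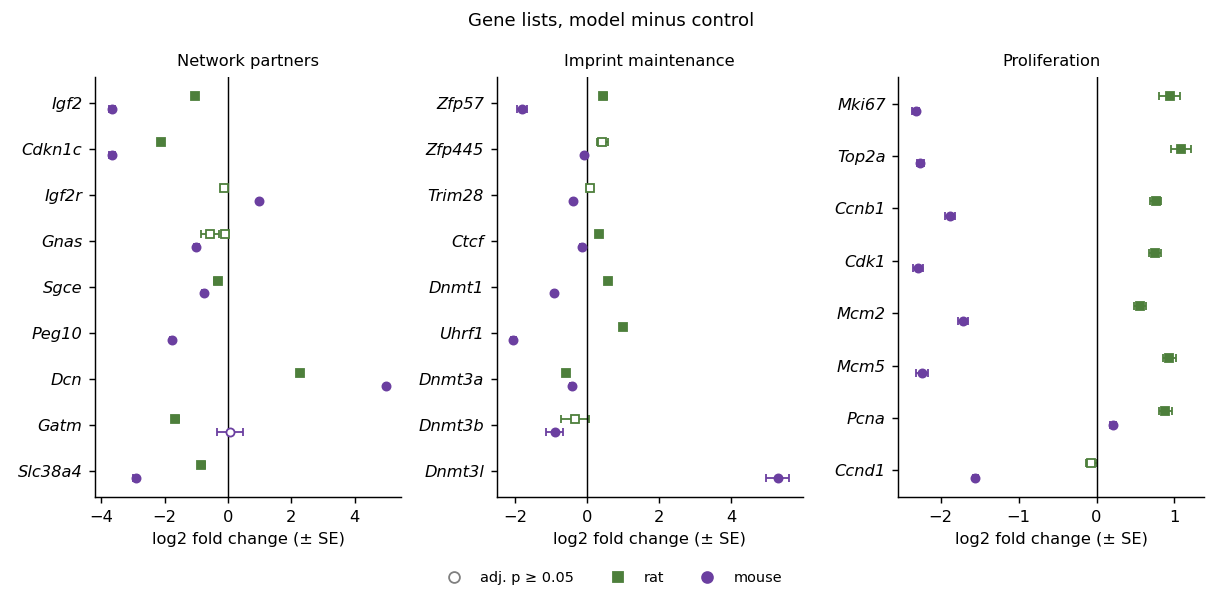
Change from control to model on the log2 scale (± SE) for the network partners, the factors that maintain imprints and proliferation genes; squares are rat, circles are mouse, and open symbols have an adjusted p of 0.05 or more. Proliferation genes lie mostly to the right of 0 in the rat and mostly to the left in the mouse, and Igf2 and Cdkn1c lie to the left in both.

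Other genes listed as imprinted moved in both directions. In the rat 7 of 24 tested fell and 3 rose, with a median of -0.01, beside 16.8% of all rat genes called lower and 18.3% called higher. In the mouse 15 of 34 fell and 10 rose, with a median of -0.08, beside 37.7% and 37.4% of all mouse genes; with library size alone the counts were 22 and 8, beside 54.7% and 25% of all genes. Ascl2, a transcription factor of the placenta, went from 0 to 0.18 FPKM in the MC libraries to 14.8, 15.6 and 16.4 FPKM in MM. Cd81 and Nap1l4, from the same domain as Cdkn1c, rose in the mouse by 1.00 and 1.13, and in the rat Cd81 was at -0.39 and Nap1l4 at 0.23.

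Of 8 tested genes for factors that keep imprints in place, 6 changed differently in the species, each with the lower value in the mouse. Over all shared genes 63.8% were called, 32.4% with the lower value in the mouse. Dnmt3a (adjusted p = 0.162) and Dnmt3b (adjusted p = 0.321) were not called. The methyltransferase gene Dnmt1 changed by 0.59 (adjusted p = 8.03e-05) in the rat and -0.92 (adjusted p = 1.55e-27) in the mouse, and its partner Uhrf1 by 1.00 (adjusted p = 2.98e-06) and -2.06 (adjusted p = 4.98e-34). The difference between the species was -1.51 (adjusted p = 9.20e-11) for Dnmt1 and -3.06 (adjusted p = 7.46e-14) for Uhrf1. The corepressor gene Trim28 was at 0.08 in the rat (adjusted p = 0.423) and -0.40 in the mouse (adjusted p = 3.79e-16), and Ctcf, whose product insulates Igf2 from its enhancers on the maternal copy, was at 0.32 (adjusted p = 0.0158) and -0.16 (adjusted p = 0.00203). Of the whole list 4 of 8 rose and 1 fell in the rat, beside 18.3% and 16.8% of all rat genes. In the mouse 1 of 9 rose and 8 fell, beside 37.4% and 37.7% of all mouse genes, or 54.7% lower with library size alone. DNA methylation was not measured.

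Transcripts of the receptors and binding partners of the members moved in both directions, with 4 of 12 up and 3 down in the rat and 7 of 15 up and 6 down in the mouse (5 and 8 with library size alone), beside the shares over all genes given above. Igf1r, which encodes the receptor that GRB10 binds, rose by 0.93 (adjusted p = 5.52e-35) in the mouse and was at 0.14 (adjusted p = 0.159) in the rat. Irs1, which encodes a substrate of that receptor, fell in both, by 0.87 in the rat and 1.04 in the mouse. Notch2, which encodes a receptor of the pathway that DLK1 modulates, rose by 0.31 and 0.74. Igf2bp2, which encodes a binding protein of Igf2 mRNA, was at 0.10 without passing in the rat and rose by 0.83 in the mouse.

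Proliferation genes were read beside the members because both groups are known to decline with maturation. In the rat 7 of 8 rose, Mki67 by 0.94 and Top2a by 1.08, Cdk1 by 0.75, while Ccnd1 was at -0.07 (adjusted p = 0.479). In the mouse 7 of 8 fell, Mki67 by 2.32, Top2a by 2.26, Cdk1 by 2.29 and Ccnd1 by 1.56, and Pcna alone rose. Of all genes tested, 18.3% were called higher in the rat and 37.7% lower in the mouse, or 54.7% lower in the mouse with library size alone. In the rat the 6 members that fell did so in libraries where proliferation genes were higher, and in the mouse the members and proliferation genes fell in the same libraries. Whether proliferation had a part in the members' changes was not tested.

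Markers of chondrocytes moved with the members. All 8 chondrocyte markers fell in both species, beside 16.8% of all rat genes and 37.7% of all mouse genes called lower. Their summed level was 4026 to 4684 FPKM in RC, 1415 to 1471 in RM, 1940 to 1986 in MC and 169 to 182 in MM. Fibroblast markers were also high, at 5521 to 6000 FPKM in RC and 3670 to 3877 in RM, and at 2261 to 2289 in MC and 897 to 907 in MM, with Col1a1 and Col3a1 on that list. Of those tested in the rat, 3 of 7 fell and 4 were not called. In the mouse 4 of 6 fell and 2 rose, Col3a1 by 0.16 and Pdgfra by 0.26, beside the shares over all genes given above. Adipocyte lineage markers, read because Dlk1, Mest and Peg3 are known from fat precursors, summed to 10.3 to 12.4 FPKM in RC and 48.2 to 73.3 in RM, and to 52.9 to 55.7 in MC and 23.1 to 23.2 in MM. Most of the rise in RM was Fabp4, from 5.03 to 54.9 FPKM. Of the 4 markers of this list tested in the rat, 1 rose and 2 fell, with Pparg at -0.93, Lpl at -1.05 and Cebpa at -0.38. Endothelial markers summed to at most 0.544 FPKM and those of nerve to at most 2.78 FPKM in any library, and muscle markers summed to 4.23 at most. Macrophage and leukocyte markers summed to 5.33 to 5.76 FPKM in RC and 7.62 to 10.3 in RM, and to 3.72 to 4.18 in MC and 8.20 to 9.67 in MM. Most of this was Cd68, which rose in both species, while Csf1r was at -1.20 in the rat and 0.70 in the mouse. The defining marker Ptprc had a mean of at most 0.0559 FPKM in any group. Fewer cells of a type and less RNA per cell cannot be told apart in such bulk libraries, and the part of cell makeup in the members' changes was not tested.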

How the data were processed

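Total RNA was the starting material of the 12 libraries, which were sequenced on an Illumina instrument after NEBNext Ultra preparation, and the submitters' processing notes name HISAT2, HTSeq 0.11.2 and the builds Rnor_6.0 and GRCm38, with no role or order. The authors deposited raw counts per gene and FPKM values for each library, and 96.4% of the mouse genes with at least 100 counts had an FPKM length equal to the merged exons of GENCODE M21 within 1 base. The deposited counts were fitted with edgeR 4.0.16 (R 4.3.3) by its quasi-likelihood test after filterByExpr and TMM scaling, within each species, with the group as the factor; p-values were adjusted by Benjamini and Hochberg over all genes tested, with a threshold of 0.05. The change was compared between species in 1 fit over genes shared by symbol. DESeq2 1.42.0, limma 3.58.1 on log2(FPKM + 1), other scalings, filters and single libraries left out were alternatives. The scripts were tested on simulated data.

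Replicates of a group differed by more than sampling noise, and more so in the rat. The chi-square per gene between libraries of a group was 6.07 to 27.8 in the rat and 1.90 to 2.48 in the mouse. The common biological coefficient of variation of the edgeR fit was 0.106 and 0.032, so a change of the same size tends to have a smaller p-value in the mouse. Libraries with the same replicate number did not deviate together (correlations of -0.098 to 0.085), so they were not treated as pairs. The members and gene lists were chosen with earlier results of these data known. All members and tested network partners are named, and of each other list up to 4 genes with the smallest adjusted p and a mean of at least 10 FPKM; further neighbours of the members and list genes were named after their values were seen. Mouse positions are from GENCODE M21 on GRCm38. No promoter entry was used for H19 and Nnat.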

Additional observations from a re-analysis of the deposited data

Results flagged for a closer look

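The edgeR test of the difference itself (mouse minus rat, log2) covered 8 members and 7 network partners. Of these, 13 had a change with IL-1β that differed between mouse and rat, beside 63.8% of all shared genes. Among the members the difference was -5.4 for Mest (mouse -5.81, rat -0.41), -1.23 for Peg3 (mouse -2.45, rat -1.22), -0.68 for Zim1, -0.35 for Dlk1, -0.29 for Ndn and -0.25 for Plagl1. Among the network partners it was -2.64 for Igf2 (adjusted p = 3.31e-12), -2.07 for Slc38a4 (adjusted p = 1.49e-08), -1.53 for Cdkn1c (adjusted p = 1.14e-08) and -0.42 for Sgce (adjusted p = 0.00703), each with the lower value in the mouse. It was 2.72 for Dcn (adjusted p = 8.73e-13), 1.72 for Gatm (adjusted p = 0.00084) and 1.08 for Igf2r (adjusted p = 5.47e-09), with the higher value in the mouse. Of these 13, Gatm and Igf2r had fitted changes of opposite sign in the species, and each passed the test in 1 species only. The test for a single library far from its group was not applied, since each group has 3 libraries.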

How the results depend on the processing

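Of 370 recomputed values of the members, 345 kept their direction and their side of the threshold, 19 lost the call, 4 gained it and 2 reversed; of the 204 that left out 1 library, 185 kept both. All within-species changes kept direction and call except Ndn in the rat, which gained it without RC library 1. The members called ranged from 6 to 7 in the rat and stayed at 10 in the mouse. Past the study's criteria, the range was 3 to 4 in the rat and 7 to 8 in the mouse. Grb10 reached them at library size alone (-1.03) and by limma on log2(FPKM + 1) (-1.01). Without MM library 1, Nnat reached them upward, at 0.92 (adjusted p = 0.000119 by edgeR). The species difference was called for 4 to 7 members. The Grb10 difference of -0.03 turned to 0.0012 without RC library 3 and to 0.0136 without RM library 2, with a range of -0.0851 to 0.0136 over single libraries left out, and was -0.31 by limma. Library size alone moved the differences of Dlk1, Ndn, Plagl1, Nnat and Grb10 by over 1.5 times, with values given above. It also moved the mouse changes of Nnat and Ndn by over 1.5 times, that of Ndn from -0.45 to -0.73. The Plagl1 difference missed the threshold by DESeq2 (adjusted p = 0.0545) and without the filter (adjusted p = 0.0543), and that of Zim1 by DESeq2 (adjusted p = 0.0583). The Nnat difference was called without MM library 1, at 0.66 (adjusted p = 0.022). Proliferation genes called higher in the mouse went from 1 (Pcna) to 0 with library size alone, an alternative chosen after seeing the data, as were all for the gene lists. With TMM-scaled CPM, added likewise, 10 mouse members did not overlap instead of 9. The cause of these shifts was not tested.

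Replicate numbers were not shown to pair libraries. With the replicate block, 6 rat members, 10 mouse members and 5 species differences were called, the Plagl1 difference being lost (-0.25, adjusted p = 0.0533).

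Counts limit the precision most for Nnat in the mouse, at 45 to 78 reads per library; every other member had 140 reads or more in each library.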
